A study of Rattus norvegicus with 6 samples.

Results

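The genes described here serve the making of red blood cells and of heme. Of 9 genes chosen by name, 7 had a row on the array and are the members described below, namely the red cell membrane and skeleton genes *Slc4a1* and *Sptb*, the heme synthesis enzymes *Alas2* and *Alad*, the erythropoietin receptor *Epor* and the erythroid nuclear factors *Gata1* and *Hemgn*. Each of the 7 was represented by 1 row among 26419 rows, of which 9747 carried a RefSeq identifier that could be given a symbol. The other 2 genes, *Tfrc* and *Fech*, had no matched row and were not analysed here. Skeletal muscle RNA of 6 male Wistar pups aged 1 day was hybridised, with 1 single-colour array for each pup. The 3 low birth weight (LBW) pups came from the 5th to 25th percentile of birth weight, and the 3 average birth weight (ABW) pups, the new born controls, from the 25th to 75th percentile per the sample labels (the treatment protocol gives a narrower ABW range). Neither group is labelled with a drug, diet or transgene. The methods describe the soleus and gastrocnemius muscles combined, so that blood, vessels and other cells of the tissue were included. The labels call the pups biological replicates but do not tie them to dams, so the p-values measure only the spread between these pups, and some pups may share a litter.

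Red cells arise from precursors that depend on erythropoietin, a hormone that acts through its receptor, Epor. Under Gata1, these precursors make globin, the membrane skeleton and heme, whose first step in erythroid cells is run by Alas2 and whose next step by Alad, an enzyme of all cells. In the newborn, red cells are still made in the liver as well as in the bone marrow, and young red cells that keep part of their RNA circulate in the blood. RNA from blood held in a muscle is therefore measured along with that of the fibers, and the comparison asks whether red cell RNA differed with birth weight in this tissue. In whole muscle, fewer cells of a type and less RNA per cell cannot be told apart.

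The tissue label was borne out by the muscle genes, because the 14 with a row of 22 listed had mean log2 signals between 10.58 and 15.34, none passed the threshold between the groups, and their list mean lay at 14.02 to 14.09 in LBW and 13.97 to 14.08 in ABW pups. The largest differences among the muscle genes were those of *Myog* (0.25, SE 0.12) and *Actn3* (-0.24, SE 0.28). Several muscle genes, such as *Acta1* at 15.34, lay near the highest signal of an array (15.18 to 15.49), so that a difference in muscle RNA may be compressed. The second LBW pup (LBW 2) stood apart from the other 2 LBW pups over all rows. On the first principal component, with 43.1% of the variance, LBW 2 was at 0.34, whereas LBW 1 and LBW 3 were at -34.0 and -38.0 and the ABW pups were between 12.0 and 31.2. Results that rest on this pup are given with and without it, a choice made after its values were seen. The values are log2 signals with no true zero, and the lowest signal of an array was between 4.58 and 4.69. How far a gene's signal lay above the background of its array is not known from these values, and the number of pups limits the precision.

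The membrane and skeleton genes went in opposite directions. *Sptb* was higher in each LBW pup than in any ABW pup, by 0.73 on the log2 scale (1.66-fold), whereas *Slc4a1* averaged 0.87 lower in LBW (a fold of 0.547) with overlapping groups. *Hemgn* averaged 0.71 lower, *Gata1*, *Alas2* and *Epor* between 0.25 and 0.09 lower, and *Alad* differed by 0.00. Of the 7 members, 1 (*Sptb*, higher) passed the threshold of the study's methods, an unadjusted p under 0.05 with a fold change of at least 1.5, and no member had an adjusted p under 0.05 by limma.

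By the same rule limma called 4.28% of all 26419 rows, 2.38% as higher and 1.9% as lower in LBW. No row passed an adjusted p of 0.05, the smallest being 0.216 by limma, while 3270 rows and 1 member had an unadjusted p under 0.05. The median difference of the members was -0.22, compared to -0.02 for all rows, and 5 of 7 members were lower in LBW, compared to 55.6% of all rows. The single call among the 7 genes describes *Sptb* and not the genes as a group.

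**Figure D1:**
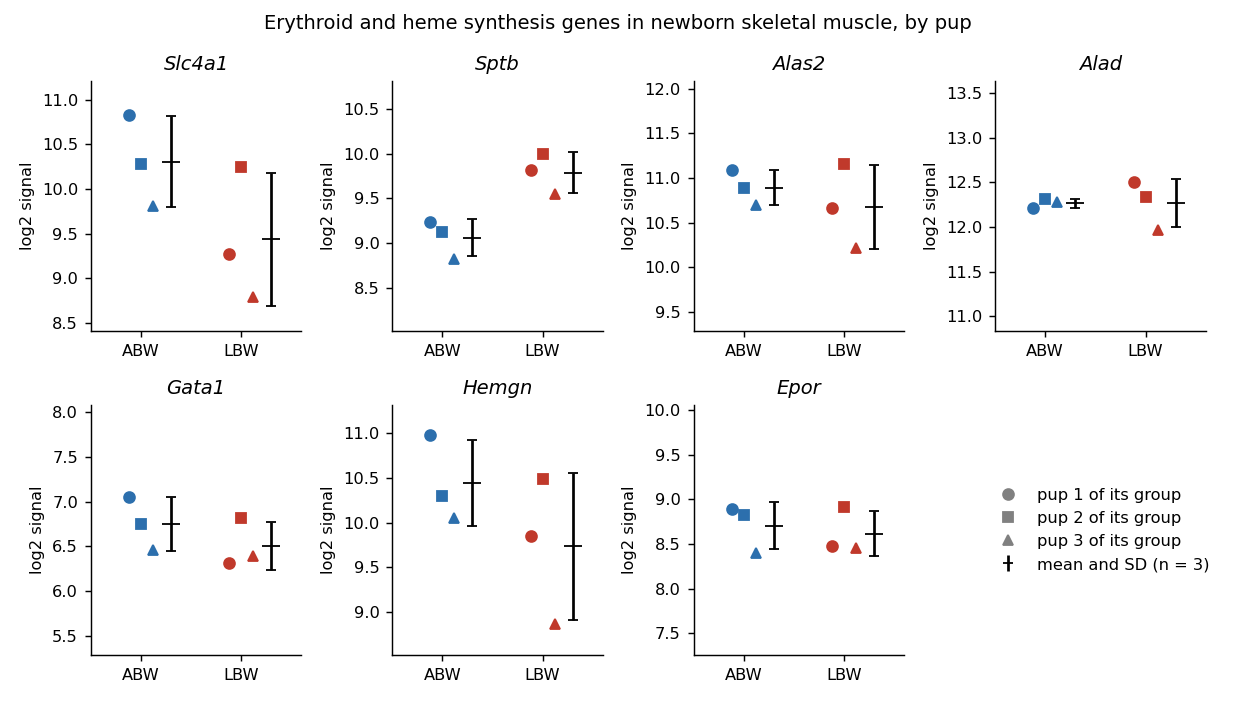
Log2 signal (y axis) of the 7 members in each ABW (blue) and LBW (red) pup, with the group mean and SD (n = 3) beside the points. All panels span the same number of log2 units. *Sptb* is the only panel in which all LBW pups lie above all ABW pups, and LBW 2 (square) lies above the other LBW pups in every panel except that of *Alad*.

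*Slc4a1* (NM_012651) encodes band 3, the anion exchanger that carries bicarbonate across the red cell membrane and anchors the skeleton beneath it. In LBW pups 1, 2 and 3 it had log2 signals of 9.27, 10.24 and 8.79, and in ABW pups 1, 2 and 3 it had 10.82, 10.28 and 9.81. LBW 1 and LBW 3 thus lay below all ABW pups, and LBW 2 lay among them. The group means were 9.43 ± 0.74 in LBW and 10.30 ± 0.51 in ABW (SD, n = 3), a difference of -0.87 (SE 0.41, 95% interval -1.86 to 0.12, adjusted p = 0.454 by limma). The exact permutation test gave a 2-sided p = 0.2, where 0.1 is the smallest that 3 pups against 3 allow. Without LBW 2 the difference was -1.28 (SE 0.32, adjusted p = 0.195 by limma) and past the study's threshold, whereas without LBW 3 it was -0.55 and without ABW 1 -0.61, both short of it.

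*Sptb* (NM_212522) encodes the beta chain of spectrin, the filament of the red cell skeleton, which skeletal muscle fibers also make. The log2 signals were 9.82, 10.00 and 9.55 in LBW 1, 2 and 3 and 9.24, 9.12 and 8.83 in ABW 1, 2 and 3. Each LBW pup was above each ABW pup, a separation in either direction that 17.4% of all rows showed. The means were 9.79 ± 0.23 and 9.06 ± 0.21 (SD, n = 3), which gave a difference of 0.73 (SE 0.16, 95% interval 0.34 to 1.11, adjusted p = 0.252 by limma, and p = 0.1 by the exact permutation test). Within each group the pups came in the same order as for *Slc4a1*, but LBW 1 and LBW 3 were 0.76 and 0.49 above the ABW mean for *Sptb*. Without LBW 2 the *Sptb* difference was 0.62 (SE 0.16, adjusted p = 0.211 by limma).

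*Alas2* (NM_013197) encodes the erythroid form of 5-aminolevulinate synthase, the rate-limiting enzyme of heme synthesis in red cell precursors. Its log2 signal was 10.66, 11.15 and 10.22 in LBW 1, 2 and 3 and 11.09, 10.88 and 10.70 in ABW 1, 2 and 3. LBW 2 was the highest of all pups and the other LBW pups were the lowest, so that the groups overlapped. The means were 10.68 ± 0.47 and 10.89 ± 0.19 (SD, n = 3), a difference of -0.22 (SE 0.24, 95% interval -0.80 to 0.37, adjusted p = 0.762 by limma). Without LBW 2 it was -0.45 (SE 0.19, adjusted p = 0.387 by limma), which did not pass the threshold, and without LBW 3 it was 0.02.

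*Alad* (NM_012899) encodes aminolevulinate dehydratase, which joins aminolevulinate molecules into porphobilinogen in all cells. Log2 signals of 12.50, 12.33 and 11.97 were found in LBW 1, 2 and 3, and values between 12.22 and 12.31 in the ABW pups. Both means were 12.27, but the SD was 0.27 in LBW and 0.05 in ABW (n = 3). The difference was 0.00 (SE 0.15, 95% interval -0.35 to 0.35, adjusted p = 0.999 by limma), an interval that holds no change as large as the study's fold of 1.5, which is 0.58 on this scale.

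*Gata1* (NM_012764) encodes the transcription factor that drives the red cell program and is also used by megakaryocytes and mast cells. Its log2 signal was 6.31, 6.81 and 6.39 in LBW 1, 2 and 3 and 7.06, 6.75 and 6.45 in ABW 1, 2 and 3. The groups overlapped through LBW 2, and the means were 6.51 ± 0.27 and 6.75 ± 0.30 (SD, n = 3). The difference was -0.25 (SE 0.20, 95% interval -0.72 to 0.23, adjusted p = 0.656 by limma). It was -0.40 without LBW 2 (SE 0.19, adjusted p = 0.446 by limma), -0.40 without ABW 3 and -0.10 without ABW 1, and passed the threshold in none of these.

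*Hemgn* (NM_133294) encodes hemogen, a nuclear protein of blood-forming cells that lies downstream of Gata1. Its log2 signal was 9.86, 10.49 and 8.86 in LBW 1, 2 and 3 and 10.98, 10.30 and 10.05 in ABW 1, 2 and 3. LBW 1 and LBW 3 were again below all ABW pups and LBW 2 was within the ABW range. The difference of -0.71 (SE 0.44, 95% interval -1.76 to 0.34, adjusted p = 0.558 by limma, exact permutation p = 0.3) lay between means of 9.74 ± 0.82 and 10.44 ± 0.48 (SD, n = 3). Without LBW 2 it was -1.09 (SE 0.39, adjusted p = 0.339 by limma) and past the study's threshold, whereas without LBW 3 it was -0.27 and without ABW 1 -0.44, both short of it.

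*Epor* (NM_017002) encodes the erythropoietin receptor, which muscle precursor cells also express. Signals of 8.48, 8.91 and 8.45 (log2) were found in LBW 1, 2 and 3 and 8.89, 8.82 and 8.40 in ABW 1, 2 and 3. The highest and the lowest pup came from different groups, and both groups covered nearly the same range. The difference was -0.09 (SE 0.18, 95% interval -0.52 to 0.35, adjusted p = 0.883 by limma), between means of 8.62 ± 0.26 and 8.70 ± 0.26 (SD, n = 3), and it was -0.23 without LBW 2 (adjusted p = 0.616 by limma).

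**Figure D2:**
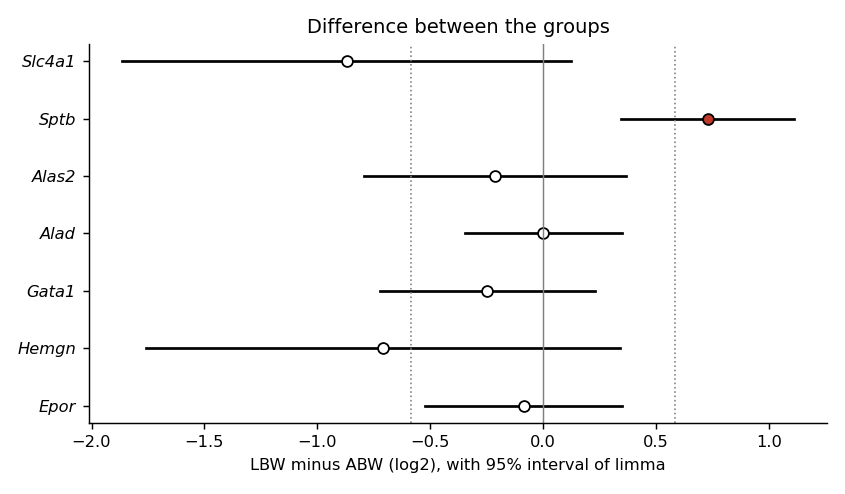
LBW minus ABW difference (x axis, log2) of each member with its 95% interval from limma. Dotted lines mark the study's fold change of 1.5, and the filled point is the member that passed its threshold. Only the interval of *Sptb* (0.34 to 1.11) lies on one side of 0.

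The pups of a group came in the same order for most members. LBW 2 was the highest LBW pup for 6 of the 7 genes, and LBW 3 was the lowest LBW pup for 6. LBW 2 lay within or above the ABW values for all 7 genes. Among the ABW pups, ABW 1 was the highest and ABW 3 the lowest for 6 genes. The gene outside these counts of 6 was *Gata1* for LBW 3 and *Alad* for the others. The share of all rows with the same order of pups was not counted, and LBW 2 also stood apart over all rows. These counts therefore do not show an order particular to the members.

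The genes differed in how far the pups were spread. LBW 2 exceeded the mean of LBW 1 and LBW 3 by 1.22 (log2) for *Slc4a1* and 1.13 for *Hemgn*, by 0.71 for *Alas2*, by 0.46 for *Gata1* and 0.44 for *Epor*, and by 0.32 for *Sptb* and 0.10 for *Alad*. ABW 1 exceeded ABW 3 by 1.01 for *Slc4a1* and 0.93 for *Hemgn*, compared to between 0.39 and 0.60 for *Alas2*, *Gata1*, *Epor* and *Sptb*. Within the ABW group alone, *Slc4a1* therefore varied by more than its mean difference between the groups, as did every other member except *Sptb*. The 2 genes that varied the most among LBW pups were also the 2 that varied the most among ABW pups.

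For 4 members (*Alas2*, *Slc4a1*, *Gata1* and *Hemgn*), LBW 1 and LBW 3 were both below every ABW pup, as for 18.3% of all rows. When LBW 2 was left out, 3 of the 7 members passed the study's threshold, namely *Slc4a1* and *Hemgn* (lower) and *Sptb* (higher). In that fit limma called 5.89% of all rows, and 2.25% as lower in LBW. The pup was singled out after its values were known, so the count of members is a description.

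**Figure D3:**
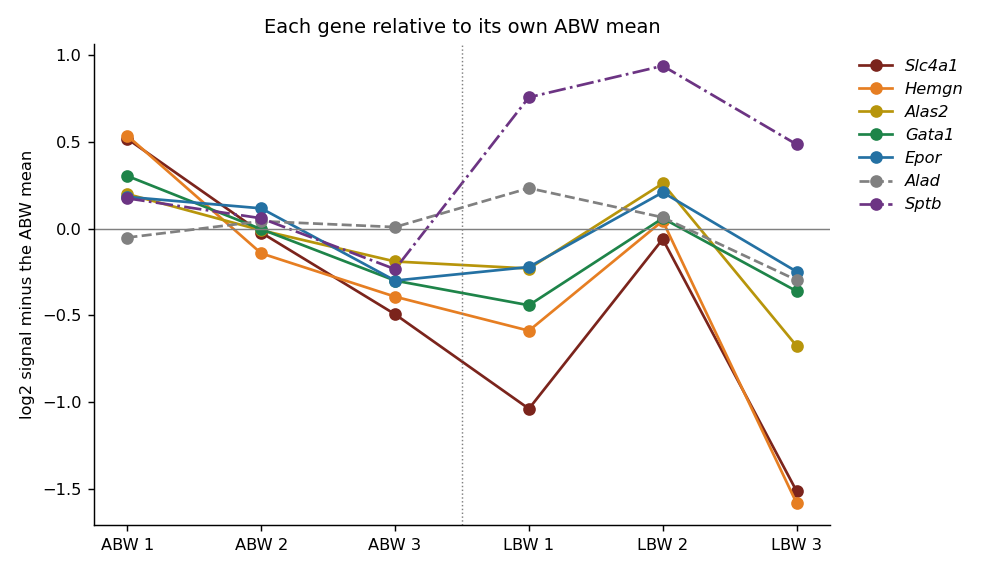
Log2 signal of each member minus its own ABW mean (y axis) in the 6 pups (x axis). Lines join the values of a gene for legibility, since pups have no order. *Slc4a1* and *Hemgn* run together, down to -1.51 and -1.58 in LBW 3, *Alas2*, *Gata1* and *Epor* follow with smaller steps, and *Sptb* lies above 0 in all LBW pups.

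The membrane and skeleton genes were also compared within each array. The *Slc4a1* signal minus that of *Sptb* was -0.55, 0.24 and -0.75 in LBW 1, 2 and 3 and 1.59, 1.16 and 0.98 in ABW 1, 2 and 3. Relative to its ABW mean, *Slc4a1* was at -0.06 in LBW 2, whereas *Sptb* was at 0.94. In ABW 1 both genes were above their ABW means, and in ABW 3 both were below. The pair was chosen with the values known, so the separation of this difference between the groups is a description with no test.

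Gata1 binds a short motif, the GATA box, in erythroid promoters, and the members were searched for it in the 250 bases before each annotated start (RefSeq, GRCr8). The letters searched on either strand were AGATAA, its variant with a last G (AGATAG), its variant with a first T (TGATAA) and the variant with both changes (TGATAG). Of the 6 members with a promoter in the table, 4 held a box (*Alas2*, *Epor*, *Hemgn* and *Sptb*), counted by gene with any annotated start. Of all 33469 promoters, 27% held one, a share counted by start and thus not measured alike. *Alad* and *Gata1* held none in this window. *Slc4a1* had no entry. The boxes are shown in capitals, in windows of 30 bases written 5′ to 3′ on the strand of the gene, to set the genes that averaged lower in LBW beside *Sptb*, which was higher.
Alas2, chrX:22895302-22895331 (plus strand), 136 bases before the start: ccttgctgagaaAGATAAtgaggggggaat
Epor, chr8:28770419-28770448 (minus strand), 114 bases before: gaggcccgtagcTTATCTgtcccggactgc
Hemgn, chr5:65485857-65485886 (minus strand), 53 bases before: tgtggtctaaccAGATAAaacttttaggcg
Hemgn, chr5:65485898-65485927 (minus strand), 94 bases before: acctgtgcagtgTGATAAagaaagtggaat
Sptb, chr6:101170318-101170347 (minus strand), 57 bases before: atgtccctcctcAGATAAtgttatttatat
Sptb, chr6:101170368-101170397 (minus strand), 107 bases before: cccgccgcgggaCTATCTggtcccggcagc

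In the *Epor* window and the second *Sptb* window, the box lies on the opposite strand. The *Epor* window is upstream of the annotated gene. Those of *Alas2* and *Hemgn* lie inside the annotated gene, and those of *Sptb* inside it or across its end, because the annotated span of the gene begins further upstream. A second annotated start of *Hemgn* had no box. *Sptb*, the member that was higher in LBW, held the same letters as *Alas2* and *Hemgn*. A match is a run of letters and does not show that the factor binds there.

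The wider pathway was read from 8 lists of 112 genes, of which 69 had a row. Of these, 1 was called higher and 1 lower, which is 2.9% of the 69, and 6 had an unadjusted p under 0.05. Their median difference was 0.00. The erythroid pathway was thus called no more often than the array as a whole.

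The globins, the chains of hemoglobin, had 8 rows of 15 genes listed, and none was called (median difference -0.05). *Hba-a1*, an adult alpha chain, was at 15.36, 15.05 and 15.26 in LBW 1, 2 and 3 and 15.45, 15.20 and 15.21 in ABW 1, 2 and 3, a difference of -0.07 (SE 0.12, adjusted p = 0.867 by limma). *Hba-a2* differed by -0.07 (SE 0.11, adjusted p = 0.824 by limma). These signals sat at the top of the scale, where the highest signal of an array was between 15.18 and 15.49, so that a difference in globin RNA may be compressed. *Hbb-b1*, an adult beta chain named after its values were seen, read lower at 14.70, 14.73 and 13.67 in LBW and 15.22, 14.71 and 14.86 in ABW (difference -0.56, SE 0.31, adjusted p = 0.512 by limma). LBW 3 was its lowest pup, as for *Slc4a1* and *Hemgn*, but LBW 1 was level with LBW 2 and ABW 2.

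The other heme synthesis enzymes and carriers had 14 rows of 16 listed, with none called and a median of -0.03. *Tmem14c*, which carries a heme precursor into the mitochondrion, differed by -0.01 (SE 0.11), and *Snx3*, which helps to recycle the transferrin receptor, by 0.02 (SE 0.11), both with adjusted p above 0.9 by limma. *Cpox*, a late enzyme of the pathway that was named after its values were seen, was lower in all LBW pups (10.11, 9.96 and 9.83) than in the ABW pups (10.40, 10.45 and 10.60). Its difference of -0.51 (SE 0.11, adjusted p = 0.249 by limma) fell short of the study's fold. *Cpox* did not share the pattern of *Alas2*, since LBW 2 lay between the other LBW pups.

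The other membrane and skeleton genes had 10 rows of 21 listed, with none called and a median of 0.13. *Tmod1*, which caps actin filaments in red cells and in muscle, was higher in all LBW pups (13.52, 13.62 and 13.36) than in the ABW pups (13.36, 13.34 and 13.01), by 0.27 (SE 0.13, adjusted p = 0.468 by limma). LBW 3 and ABW 1 were level to the decimals given. *Stom*, or stomatin, differed by 0.09 (SE 0.19, adjusted p = 0.892 by limma). *Rhag*, a red cell ammonium channel named after its values were seen, had signals of 5.79, 7.85 and 5.32 in LBW 1, 2 and 3 and of 6.72, 6.65 and 5.32 in ABW 1, 2 and 3. LBW 2 was its highest pup, and its group means differed by 0.09 (SE 0.71, adjusted p = 0.972 by limma).

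Of the other erythroid transcription factors, 5 of 12 had a row, with 1 called and a median of -0.11. *Sox6*, which helps to silence embryonic globin and is also active in muscle fibers, was at 11.22, 11.44 and 10.99 in LBW 1, 2 and 3 and at 10.45, 10.66 and 10.61 in ABW 1, 2 and 3. All LBW pups were above all ABW pups, by 0.65 (SE 0.14, 1.56-fold, adjusted p = 0.249 by limma). It fell short of the fold of 1.5 without LBW 2 (0.54) and without ABW 1 (0.58). *Lmo2*, a partner of Gata1, differed by -0.01 (SE 0.13, adjusted p = 0.987 by limma).

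Erythropoietin signalling had 7 rows of 10 listed, and none was called. All 7 had positive differences (0.01 to 0.63), compared to 11740 of all 26419 rows. *Bcl2l1*, a survival gene, differed by 0.28 with its 3 rows averaged (SE 0.16, adjusted p = 0.541 by limma), and the kinase gene *Jak2* by 0.16 (SE 0.11, adjusted p = 0.600 by limma). The list mean was between 9.91 and 10.01 in LBW and 9.64 and 9.84 in ABW.

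Iron uptake, storage and export had 11 rows of 15 listed, with none called and a median of -0.03. The ferritin chains *Fth1* and *Ftl1* differed by -0.08 (SE 0.10) and 0.09 (SE 0.09). *Slc40a1*, the iron exporter ferroportin, lay just short of the threshold at -0.58 (SE 0.20, adjusted p = 0.340 by limma), with 10.54, 10.63 and 10.08 in LBW and 10.67, 11.19 and 11.14 in ABW. It was named after its values were seen. Heme breakdown and export had 6 rows of 10 listed and none called (median 0.01), with *Hmox1*, heme oxygenase, at 0.05 (SE 0.09) and *Blvra*, biliverdin reductase, at -0.20 (SE 0.19).

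The red cell enzymes had 8 rows of 13 listed, with 1 called and a median of -0.09. *Alox15*, the lipoxygenase that helps young red cells to clear their mitochondria and that some white cells also make, had signals of 9.52, 9.95 and 8.06 in LBW 1, 2 and 3, while ABW 1, 2 and 3 had 11.20, 11.47 and 10.27. All LBW pups were below all ABW pups, a separation in either direction that 17.4% of all rows showed. The difference was -1.81 (SE 0.54, a fold of 0.286, adjusted p = 0.306 by limma). LBW 3 was the lowest and LBW 2 the highest LBW pup, as for most members, but LBW 2 did not reach the ABW range. *Prdx2*, a peroxidase abundant in red cells, differed by -0.06 (SE 0.10) and *Cat*, catalase, by -0.19 (SE 0.09).

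**Figure D4:**
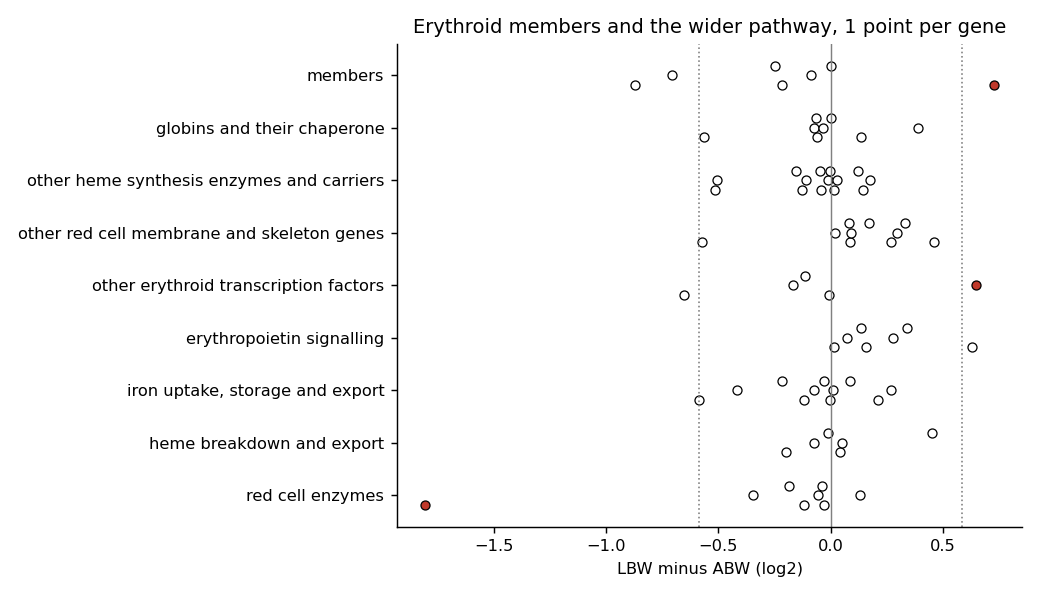
LBW minus ABW difference (x axis, log2) of the members and of each gene of the 8 pathway lists, 1 point per gene. Filled points passed the study's threshold and dotted lines mark a fold change of 1.5. The called genes are *Sptb*, *Sox6* and *Alox15*, and most other genes lie within 0.5 of 0.

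Of the lists of other cells, those of bone, neutrophils and osteoclasts stood higher in LBW 1 and LBW 3 than in LBW 2 or any ABW pup. The macrophage, mast cell, platelet, lymphocyte and cell cycle lists did not, and were below their ABW means in LBW 1 and LBW 3. The bone and osteoblast list had 6 of its 11 genes with a row called higher and none lower (median 1.58), and its mean was between 8.06 and 11.23 in LBW and 7.50 and 7.77 in ABW. Relative to the ABW mean, LBW 1 and LBW 3 stood at 2.76 and 3.59 but LBW 2 at 0.43. *Spp1*, osteopontin, was at 13.03, 9.78 and 14.24 in LBW 1, 2 and 3 and at 7.27, 7.52 and 7.18 in ABW 1, 2 and 3. *Ibsp*, bone sialoprotein, and *Bglap*, osteocalcin, ran the same way, at 9.86 and 8.80 in LBW 2 and above 12.8 in LBW 1 and LBW 3. LBW 1 and LBW 3 were also the pups that lay below every ABW pup for *Slc4a1*, *Hemgn*, *Alas2* and *Gata1*, as for 18.3% of all rows. These members are named because they showed that pattern, so the match with the bone markers is a description. In the same pups *Sptb* lay above every ABW pup, and *Alad* and *Epor* showed neither pattern.

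The neutrophil granule list had 4 of 11 called higher (median 0.50), with means between 8.62 and 9.78 in LBW and 8.11 and 8.28 in ABW, and stood 1.59, 0.43 and 1.45 above the ABW mean in LBW 1, 2 and 3. *Mmp8*, a collagenase of neutrophils, was at 9.64, 7.63 and 9.42 in LBW and at 5.49, 6.09 and 6.03 in ABW, and *S100a9*, a calcium-binding protein of these cells, was higher by 2.19 (SE 0.35, adjusted p = 0.216 by limma). The osteoclast list had 2 of 7 called higher (median 0.46; *Acp5*, 1.97, and *Mmp9*, 2.89, which the neutrophil list also holds), with means between 8.85 and 11.07 in LBW and 8.71 and 8.78 in ABW. *Acp5* and *Mmp9* passed the threshold with a pup left out only when that pup was LBW 2. The part of these cells in the differences of the erythroid genes was not tested.

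Markers of hepatocytes, as a list, were highest in LBW 2. The hepatocyte list had none of 9 called (median 0.14), but its mean in LBW 2 was 0.84 above the ABW mean, compared to -0.15 and -0.31 in LBW 1 and LBW 3 and between -0.10 and 0.07 in the ABW pups. Its means were between 6.16 and 7.30 in LBW and 6.37 and 6.53 in ABW. The mean signals of its genes were low on the scale, between 5.24 and 7.65. *Alb*, albumin, named after its values were seen, was at 8.45 in LBW 2 and between 5.21 and 6.76 in the other pups. *Ahsg*, fetuin, was at 8.18 in LBW 2 and between 7.17 and 7.37 elsewhere, and *Afp*, alpha-fetoprotein, at 6.71 and between 5.53 and 5.77. *Apoa1*, also named after its values were seen, was instead highest in ABW 2 at 8.24, with 8.15 in LBW 2. The pup with the highest hepatocyte list mean was the LBW pup with the highest signal for 6 of the 7 erythroid members. The share of all rows for which LBW 2 was the highest LBW pup was not counted. The part of liver RNA in this was not tested.

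**Figure D5:**
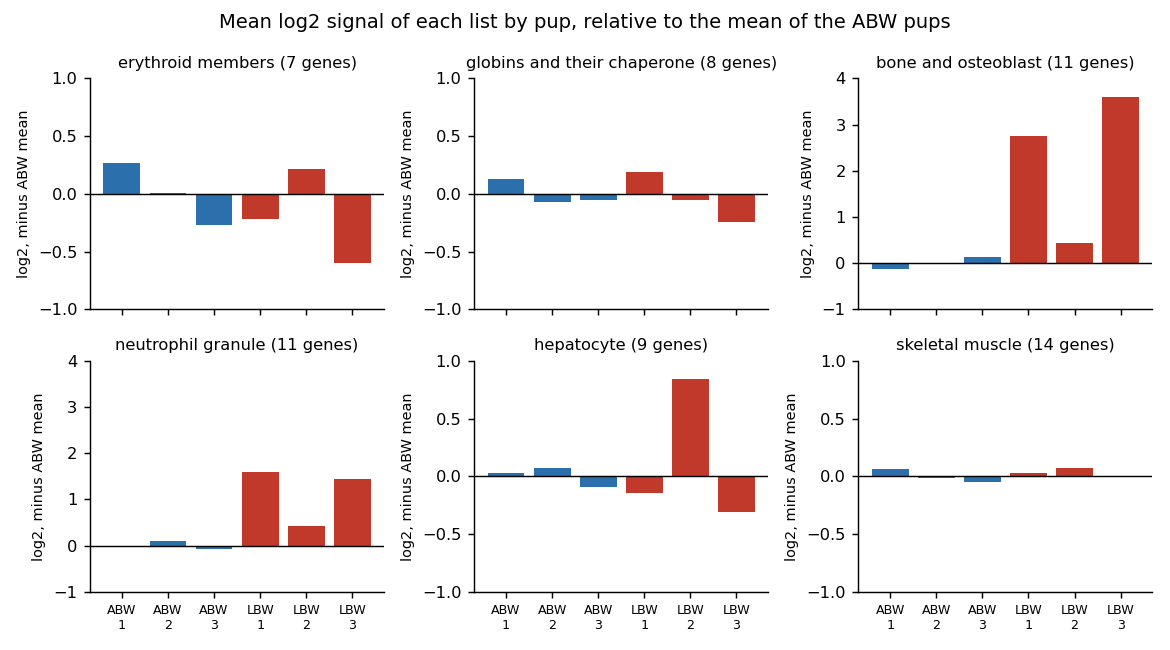
Mean log2 signal of 6 gene lists in each pup minus the ABW mean of the list (y axis; the scale is wider for bone and neutrophil genes). The erythroid members are lowest in LBW 3 (-0.60) and above the ABW mean in LBW 2 (0.22), the bone list is highest in LBW 1 and LBW 3, the hepatocyte list is highest in LBW 2 and the muscle list is level.

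Likeness of pattern was measured as the root mean square distance between the 6 centred log2 values of a gene and those of *Alas2*, over 9626 other symbols. The 5 nearest were *Mbp* (0.06), *Bik* (0.08), *Mapkapk3* (0.08), *Tmx2* (0.08) and *Morn4* (0.09), none of them in the erythroid lists. Of the members, *Epor* ranked 94, *Gata1* 125, *Alad* 1425, *Hemgn* 6141, *Slc4a1* 7461 and *Sptb* 8596. The distance reads the size of the steps as well as their order. The pups of each group came in the same order for *Alas2*, *Hemgn* and *Slc4a1*, but over all 6 pups the order and the size of the steps both differed.

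The same measure was taken from *Slc4a1*, a choice made after its values were seen. *Hemgn* was the nearest of all 9626 symbols (0.18), followed by *Asns* (0.22), *Ifit1* (0.22), *Gch1* (0.23), *Reep6* (0.23) and *Lgals5* (0.24). *Alas2* ranked 43, *Gata1* 77, *Epor* 257, *Alad* 3161 and *Sptb* 9068. These ranks describe 6 pups and share the array of each pup.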

How the data were processed

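RNA from the muscle of 3 LBW and 3 ABW pups was hybridised as Cy3-labelled target to NimbleGen rat expression arrays. The deposited values are on the log2 scale, 1 value per transcript and pup; the submitters' processing notes name RMA, and per the methods the authors normalized the data with R and Bioconductor. Background and spot quality were not analysed here. RefSeq identifiers were matched to symbols through a RefSeq gene table (GRCr8), which named 9747 rows of 9627 symbols, and rows of a symbol were averaged. Differences were fitted with limma 3.58.1 (R 4.3.3) over all 26419 rows with Benjamini-Hochberg adjustment. The threshold is that of the study's methods, an unadjusted p under 0.05 and a fold of at least 1.5. The fit was tested on simulated data. Single values also had an exact permutation test. The members and lists were chosen with earlier results of these data known. By rule, the text names all members with a row, pathway genes past the threshold and the 2 with the highest signal of each list, up to 3 called genes of each other cell list (or the 2 of largest difference) and the 5 symbols nearest to *Alas2*; other names are said to be chosen later. Alternatives changed the normalization, centring, variance model, filter, test, fold and block, and left out each pup.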

Additional observations from a re-analysis of the deposited data

How the results depend on the processing

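The call of *Sptb* held under all 16 alternatives run except a fold change of at least 2, where 0 members and 336 transcripts passed. Leaving out single pups gave between 1 and 3 called members and between 806 and 1555 called transcripts, and the median member difference ranged from -0.40 (without LBW 2) to -0.006 (without LBW 3). Only without LBW 2 did any transcript pass the adjusted threshold (126, against 0 by limma otherwise). With an intensity trend, 2 members were called, *Slc4a1* joining *Sptb*, and the methods' t-test called 586 transcripts, compared to 1131 by limma. With the replicate number as a block, 2 members (again *Slc4a1* and *Sptb*) and 1236 transcripts were called. The numbers share no stated litter or day. After the group mean of each row was subtracted, the deviations of same-numbered LBW and ABW pups correlated by 0.087, 0.103 and 0.055. By these deviations, 3 of 3 LBW pups correlated best with the ABW pup of their own number, which is a hint from the data only. The near-zero difference of *Alad* turned negative without LBW 1, LBW 2 or ABW 1 (range over left-out pups -0.12 to 0.149) and when centred on the array median (-0.0118). Over left-out pups, that of *Alas2* ran from -0.45 to 0.015 (positive without LBW 3) and that of *Epor* from -0.24 to 0.0047 (positive without ABW 1). LBW 3 set much of the size for *Slc4a1* (-0.55 without it) and *Hemgn* (-0.27). By the methods' t-test, *Alox15*, *Bglap*, *Acp5*, *Mmp9*, *Ppbp* and *Mcpt8* lost their calls. Without single pups, *Acp5*, *Mmp9*, *Ppbp*, *Mcpt8*, *Cd4* and *Sox6* lost theirs. The cause of these changes was not tested.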

Other observations

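Cell cycle genes, which mark dividing precursors of any kind, had 11 rows of 19 listed. None reached the study's fold, but 7 were lower in all LBW pups than in any ABW pup (17.4% of all rows separated the groups in either direction) and the median difference was -0.28. *Ccnb1*, a mitotic cyclin, was at 11.42, 11.45 and 11.45 in LBW 1, 2 and 3 and at 12.14, 11.91 and 12.01 in ABW 1, 2 and 3 (difference -0.58, SE 0.09, adjusted p = 0.216 by limma), and *Plk1*, a mitotic kinase, differed by -0.51 (SE 0.11, adjusted p = 0.249 by limma). LBW 2 was level with or between the other LBW pups for both genes. The list mean was between 11.67 and 11.92 in LBW and 12.05 and 12.15 in ABW.

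Megakaryocytes share Gata1 with red cell precursors, and the platelet list had 1 of 7 genes called, lower (median -0.21). *Ppbp*, a platelet chemokine, was between 5.69 and 5.71 in the LBW pups and at 6.98, 6.15 and 5.97 in ABW 1, 2 and 3, and it was no longer called without LBW 1, LBW 2, LBW 3 or ABW 1 (-0.36 without ABW 1). Mast cell genes had 2 of 10 called, both higher (*Mcpt1*, 0.77, and *Mcpt8*, 0.62). However, 7 of the 10 averaged lower in LBW, with a list median of -0.16. *Mcpt8* was not called without LBW 1 (0.51) or ABW 1 (0.46). The macrophage list had 0 of 9 called by limma and 0 with an unadjusted p under 0.05 (median -0.02; *Adgre1*, -0.51, and *Csf1r*, -0.26), and the lymphocyte list had 1 of 6, *Cd4*, at -0.61 (median -0.06), which was not called without LBW 1, LBW 3, ABW 2 or ABW 3.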
